A study of Sus scrofa with 8 samples.

Results

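Genes of the NRF2 pathway and of glutathione defence were examined in livers of pigs before and after a diet that produces fatty liver. The set holds 10 genes, chosen by symbol with earlier results of these data known, out of 18103 genes listed in the expression table. It consists of NFE2L2, which encodes the transcription factor NRF2, of its target genes GCLC, GCLM, SRXN1, TXNRD1 and NQO1, and of the detoxifying enzymes GPX1, GPX4, CAT and SOD2. All 10 were listed under 1 row each and all 10 passed the filter on low values, which kept 13175 genes.

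Hepatic RNA of male Landrace x Large White pigs was measured by RNAseq in 8 libraries, each a pool of 2 pigs. The 4 pools of the initial state came from healthy livers of pigs aged 4 months on the control diet. The 4 pools of steatosis came from pigs aged 6 months that had received the steatotic diet for 2 months, a feed rich in cholesterol, cholate, fructose and saturated fat and poor in methionine and choline. The study's methods give both groups as the same animals and the initial samples as biopsies taken by laparotomy, with the final samples taken after euthanasia, so the diet, the age and the way of sampling cannot be told apart. A replicate is a pool, and every SD below is between pools and not between pigs.

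NRF2 is held at a low level in unstressed cells by KEAP1, an adaptor that hands it to a CUL3 ubiquitin ligase for degradation. When electrophiles or oxidants modify KEAP1, or when the autophagy receptor p62, encoded by SQSTM1, occupies it, NRF2 accumulates, pairs with small MAF proteins and binds antioxidant response elements in its target genes. Much of this control acts on the protein, which was not measured here. The targets make glutathione, reduce thioredoxin and sulfiredoxin substrates, supply NADPH and remove quinones, and in the liver they protect hepatocytes that process lipids and xenobiotics.

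In the values as deposited, transcripts of NRF2 and of its targets GCLC, GCLM, SRXN1 and TXNRD1 were higher in steatosis. With limma and p-values adjusted by Benjamini-Hochberg, 7 of the 10 genes rose (NFE2L2, GCLC, GCLM, SRXN1, TXNRD1, GPX1 and GPX4) at an adjusted p below 0.05 and 0 fell, while NQO1, CAT and SOD2 did not pass. Of all tested genes 26.7% rose by the same rule and 2.28% fell. The study itself asked for a change of more than 1 on the log2 scale together with an adjusted p below 0.01. With these limits 1 of the 10 genes rose, SRXN1, against 6.01% of all tested genes, and 0 fell, against 0.334%. Pools of both groups were separate in the direction of a fall for 0 of the 10, against 2.53% of all tested genes. The median log2 fold change (log2FC, steatosis over initial state) was 0.65 over the 10 genes and 0.25 over all tested genes, so each change stands against a general shift of the table towards higher values in steatosis.

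This shift was removed in an alternative in which the values of a library were divided by the median of their ratios to the gene means, after which the median of all tested genes was -0.01 and that of the 10 genes 0.38. On that scale GCLM, SRXN1 and TXNRD1 rose at an adjusted p below 0.05 and 0 of the 10 fell, against 11.6% of all tested genes higher and 9.8% lower. With the study's limits 0 of the 10 passed on that scale, against 3.11% higher and 0.641% lower of all tested genes. By these limits 792 of all tested genes were higher and 44 lower as deposited, and 408 were higher and 84 lower after the median-ratio scaling. Which of the scales is nearer to the RNA content of the tissue was not tested, and values on both are given below. With the pool number as a block, 8 of the 10 rose at an adjusted p below 0.05 (NQO1 was added), against 25.7% of all tested genes, and 1 rose past the study's limits, against 5.96%. With the block and the median-ratio scaling together 4 rose, GCLC in addition to the other 3, against 11.5% of all tested genes higher and 8.37% lower, and 0 passed the study's limits, against 3.18% higher and 0.672% lower.

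The values stand apart between groups for most of the genes. For 8 of the 10 every steatosis pool lay above every initial pool, and the exceptions were NQO1 and SOD2. This separation towards higher values was found for 29.6% of all tested genes. In liver tissue as a whole, more RNA per cell and more cells of a type that expresses the gene cannot be told apart.

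**Figure D1:**
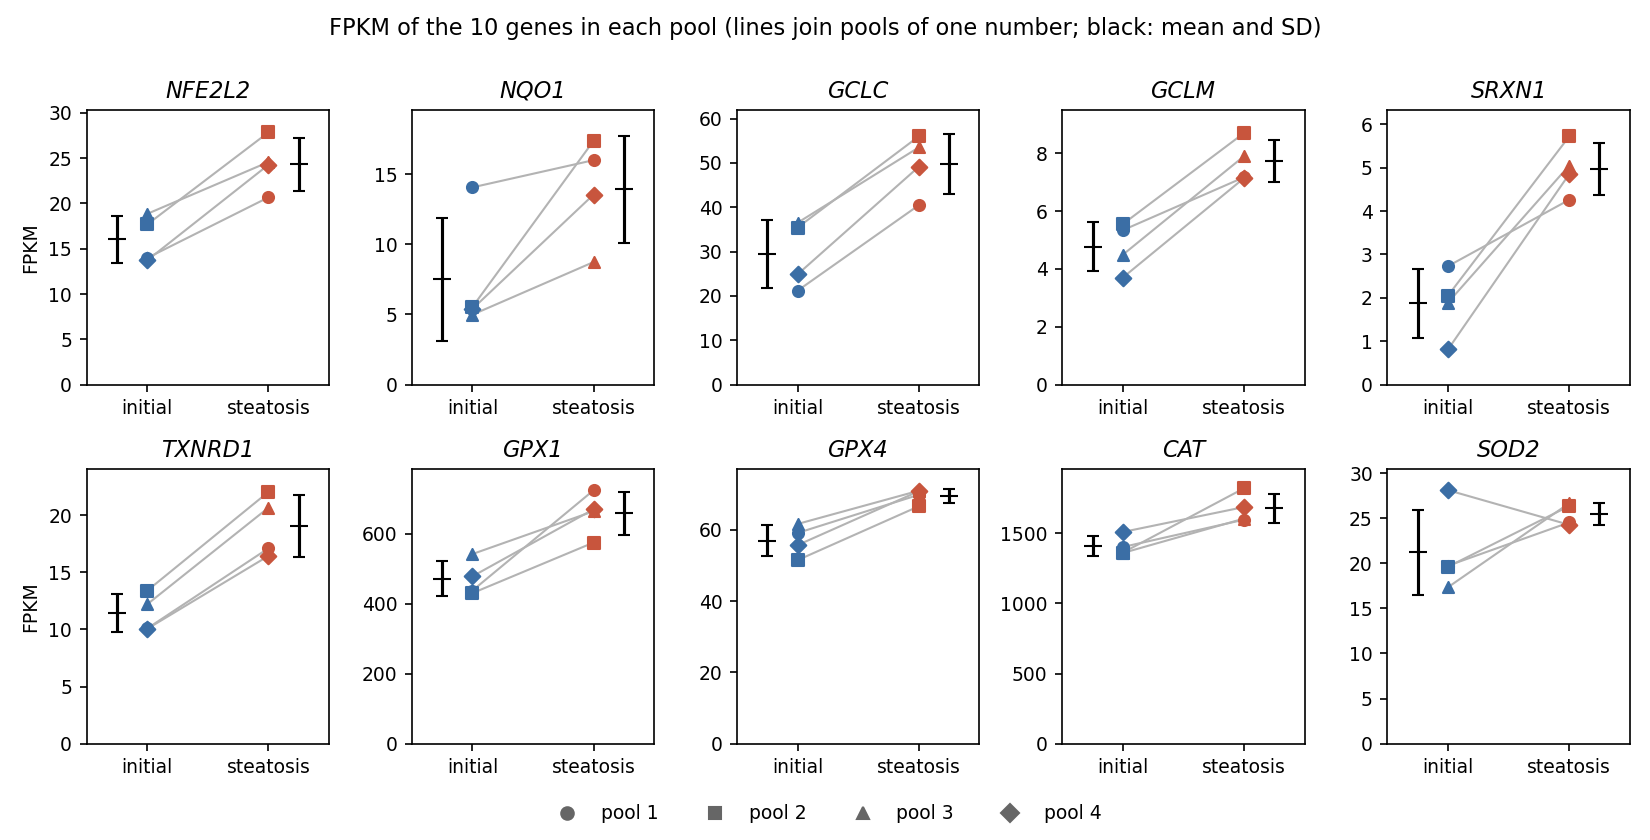
FPKM of each of the 10 genes (vertical axes from 0, a scale of its own for each gene) in the initial state (blue) and in steatosis (red), with 1 symbol per pool number, grey lines between pools of the same number, and the mean with its SD over 4 pools in black. All 4 lines climb for 9 genes; for SOD2 the line of pool 4 falls from 28.1 to 24.3 FPKM, and for NQO1 initial pool 1 sits at 14.1 FPKM, above steatosis pools 3 and 4.

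NFE2L2 (gene 100516343, chromosome 15 of assembly Sscrofa11.1, 82967485 to 83146185) measured 14.0, 17.7, 18.9 and 13.7 FPKM (fragments scaled by transcript length and by the mapped fragments of the library) in pools 1 to 4 of the initial state and 20.7, 27.9, 24.6 and 24.3 FPKM in steatosis pools 1 to 4. The lowest steatosis pool lay above the highest initial pool. The mean went from 16.1 ± 2.60 to 24.3 ± 2.94 FPKM (SD over 4 pools), with a log2FC of 0.60 (SE 0.14, adjusted p = 0.00975 from limma). After the median-ratio scaling the log2FC was 0.33 and the adjusted p 0.0704, so the transcript of the factor itself no longer passed. Between pools of the same number the log2 ratio was 0.56, 0.65, 0.38 and 0.82.

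Few of the other genes of NRF2 control passed the test. Of the 11 regulators tested, 1 rose at an adjusted p below 0.05, SQSTM1, and 0 fell, against 26.7% and 2.28% of all tested genes, and the median log2FC of the list was 0.18. On the median-ratio scale 0 rose and 1 fell, against 11.6% and 9.8% of all tested genes. The gene that fell was CUL3, the scaffold of the ligase that KEAP1 serves. Its log2FC was -0.32 there (adjusted p = 0.0159, or 0.0528 with the block) and -0.05 as deposited. KEAP1 measured 18.8 ± 0.931 FPKM before the diet and 22.0 ± 1.46 FPKM after it, with ranges that did not overlap, and had an adjusted p of 0.0767. Its log2FC was 0.23 as deposited, -0.05 after the median-ratio scaling and -0.01 after scaling to the upper quartile. As deposited, its log2FC was close to the median of all tested genes.

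SQSTM1, the receptor that links ubiquitinated cargo to autophagy and binds KEAP1, measured 103, 90.6, 96.7 and 90.9 FPKM before the diet and 122.5, 142.9, 156 and 140.4 FPKM after it. All steatosis pools were above all initial pools, with a log2FC of 0.55 (SE 0.10, adjusted p = 0.0027). On the median-ratio scale it was 0.28 with an adjusted p of 0.105. The ratio of NFE2L2 to KEAP1, both in FPKM, was 0.856 ± 0.144 in the initial pools and 1.11 ± 0.166 in steatosis (two-sided exact permutation test, p = 0.0857, adjusted p = 0.171 over 4 ratios), with overlap between the groups. It was higher in steatosis in 4 of 4 pairs of pools of the same number (exact sign-flip permutation test, p = 0.125, the smallest that 4 pairs allow, adjusted p = 0.167 over 4 ratios). The 4 ratios given here and below were chosen after their values were seen. Steatosis pool 1 held the lowest ratio of its group, 0.867, within the range of the initial pools.

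Both subunits of glutamate-cysteine ligase, which joins glutamate to cysteine in the rate-limiting step of glutathione synthesis, rose. GCLC, the catalytic subunit (gene 100522018, chromosome 7, 27209565 to 27253535), measured 21.2, 35.4, 36.5 and 24.9 FPKM in pools 1 to 4 before the diet and 40.5, 56.0, 53.5 and 49.1 FPKM after it. Pools 2 and 3 were the highest in both groups, and the groups did not overlap. The log2FC was 0.78 (SE 0.18, adjusted p = 0.0123), and 0.51 on the median-ratio scale, with an adjusted p of 0.0592 there and of 0.013 when the pool number was added as a block.

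GCLM, the modifier subunit that raises the activity of the ligase (gene 100153977, chromosome 4, 123371198 to 123390130), measured 5.34, 5.55, 4.49 and 3.70 FPKM before the diet and 7.17, 8.70, 7.90 and 7.14 FPKM after it. Again the groups did not overlap. Its log2FC was 0.70 (SE 0.14, adjusted p = 0.00649) as deposited and 0.43 (adjusted p = 0.0278) after the median-ratio scaling. The catalytic transcript was the more abundant of the pair in every pool, at 6.30 ± 1.73 times the FPKM of GCLM in the initial state and 6.43 ± 0.559 times in steatosis (two-sided exact permutation test, p = 0.8, adjusted p = 0.8 over 4 ratios), and higher in steatosis in 3 of 4 pairs. With 4 pools per group this does not show that the subunits moved alike, since the ratio ranged from 3.97 to 8.13 among the initial pools.

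SRXN1 had the largest log2FC of the 10 genes. It encodes sulfiredoxin, which uses ATP to repair peroxiredoxins inactivated by excess peroxide, and it lies on chromosome 17 from 34582377 to 34589308 (gene 100517736). The initial pools measured 2.73, 2.05, 1.89 and 0.81 FPKM and the steatosis pools 4.26, 5.72, 5.05 and 4.85 FPKM. Initial pool 4 was the lowest and initial pool 1 the highest of its group, yet the lowest steatosis pool was above both. The mean went from 1.87 ± 0.795 to 4.97 ± 0.602 FPKM, which is a log2FC of 1.47 on the scale of log2(FPKM + 0.1), with a 95% confidence interval from 0.80 to 2.14 and an adjusted p of 0.00613 from limma.

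At these low values the size of the SRXN1 change depends on initial pool 4. Without it the log2FC was 1.14 (adjusted p = 0.00166), and with a pseudocount of 1 in place of 0.1 it was 1.10 (adjusted p = 0.00322). After the median-ratio scaling it was 1.21 with an adjusted p of 0.0137, under 0.05 but above the study's limit of 0.01. The same happened without the filter on low values (adjusted p = 0.0122) and when initial pool 2 or 3 or any 1 of the steatosis pools was left out (up to 0.021). Among all tested genes the change of SRXN1 stood at percentile 97.1.

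TXNRD1, the cytosolic thioredoxin reductase, a selenoenzyme that recharges thioredoxin with electrons from NADPH, was the most even of the 10 between pool numbers. It lies on chromosome 5 from 80170334 to 80213889 (gene 396681). It measured 10.1, 13.4, 12.2 and 10.1 FPKM before the diet and 17.1, 22.0, 20.7 and 16.4 FPKM after it, and the log2 ratio between pools of the same number was 0.76, 0.71, 0.75 and 0.70. The groups did not overlap. The log2FC was 0.73 (SE 0.14, adjusted p = 0.0039) as deposited and 0.46 (adjusted p = 0.0248) after the median-ratio scaling. TXN, the substrate of the reductase and itself a target of NRF2, had 7.53 ± 1.66 times the FPKM of TXNRD1 in the initial pools and 9.17 ± 1.73 times in steatosis (two-sided exact permutation test, p = 0.229, adjusted p = 0.305 over 4 ratios), and more in steatosis in 4 of 4 pairs (paired exact p = 0.125).

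NQO1, a flavoprotein that reduces quinones with both electrons at once and is often used as a readout of NRF2, did not pass the test in all pools together. It lies on chromosome 6 from 17292962 to 17302593 (gene 100286873). The initial pools measured 14.1, 5.53, 4.98 and 5.39 FPKM and the steatosis pools 16.0, 17.4, 8.73 and 13.5 FPKM. Initial pool 1 stood apart from the other 3 and lay within the range of steatosis, while steatosis pool 3 was the lowest of its group. The log2FC was 0.98 (SE 0.33, adjusted p = 0.0503), with a 95% confidence interval from 0.24 to 1.72.

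NQO1 lay close to the threshold of 0.05, and with a filter at 1 FPKM, which tests fewer genes, its adjusted p was 0.0474. Without initial pool 1 the log2FC was 1.33 and the adjusted p 0.00252, past the study's limits. Without steatosis pool 3 it was 1.19 with an adjusted p of 0.0329, and with the pool number as a block, which compares pools of the same number, the adjusted p was 0.0169. After the median-ratio scaling the log2FC was 0.71 and the adjusted p 0.166, or 0.069 with the block.

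Initial pool 1 also carried transcripts of other tissues. The summed FPKM of 8 skeletal muscle markers was 2900.2 in this pool and 0.84, 7.82 and 21.4 in initial pools 2 to 4, against 0.05 to 0.26 in steatosis, and 4 of the 8 were listed at 0 in all steatosis pools. For 7 stomach mucosa markers the sum was 1525 in initial pool 1, from 5.64 to 28.6 in the other initial pools and from 6.08 to 6.64 in steatosis, and TFF1, GKN1 and GKN2 were listed at 0 in all steatosis pools. Most of the steatosis sums was PGC, at 5.48 to 6.06 FPKM. It measured 3.57 to 5.38 FPKM in initial pools 2 to 4 and 44.5 FPKM in initial pool 1. The part of these tissues in the NQO1 value of that pool was not tested. For the other 9 genes initial pool 1 did not stand apart in this way, and without it the same 7 genes and NQO1 were higher at an adjusted p below 0.05. In that setting 3099 of all tested genes were higher by the same rule.

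**Figure D2:**
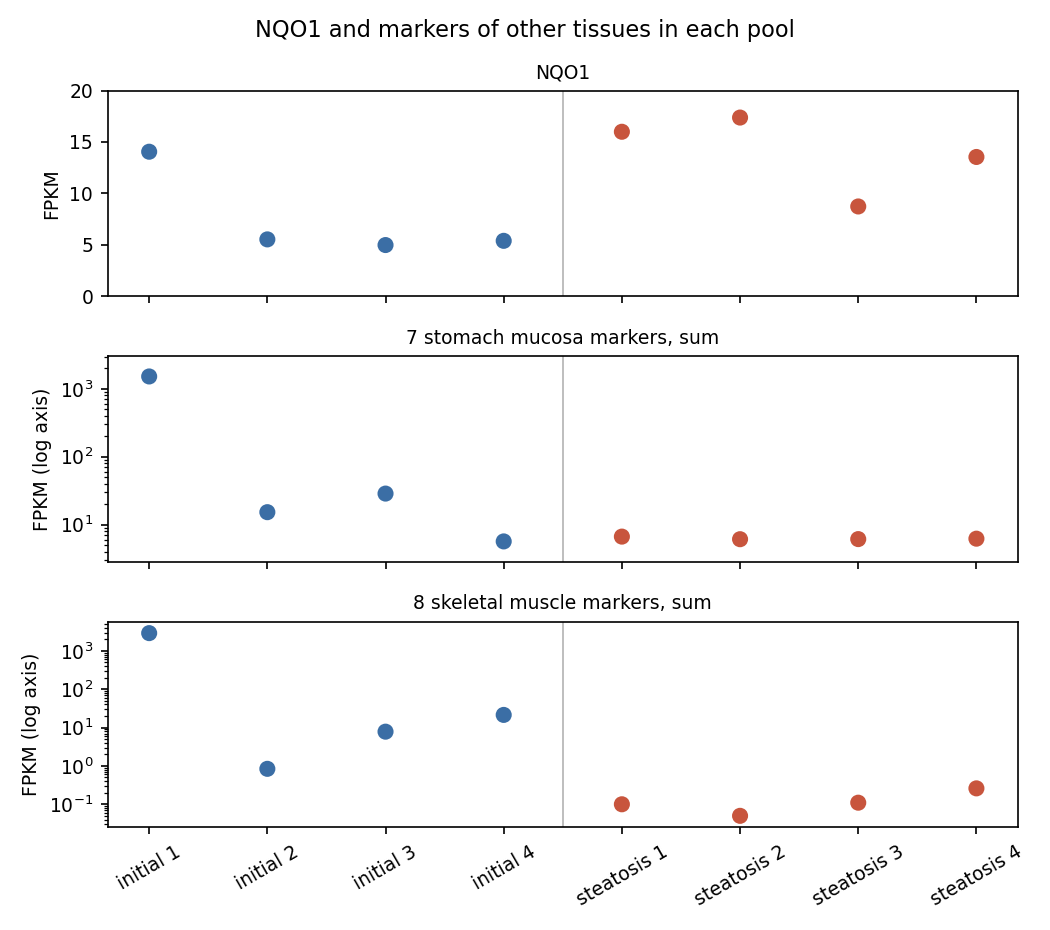
FPKM of NQO1 (top, linear axis from 0) and summed FPKM of stomach mucosa markers (middle) and skeletal muscle markers (bottom), both on log axes, in each initial pool (blue) and each steatosis pool (red), with 1 point per library and no error bars. Initial pool 1 is the highest initial pool in all 3 panels, at 14.1, 1525 and 2900.2 FPKM.

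GPX1, the cytosolic glutathione peroxidase that reduces hydrogen peroxide (gene 397403, chromosome 13, 31916269 to 31917337), measured 437.6, 430.3, 542 and 478 FPKM before the diet and 724, 575, 664 and 670.1 FPKM after it. The groups were separate, although initial pool 3 came close to steatosis pool 2. The log2FC was 0.48 (SE 0.11, adjusted p = 0.0103) as deposited and 0.21 (adjusted p = 0.301) after the median-ratio scaling.

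GPX4, the selenoenzyme that reduces lipid hydroperoxides within membranes and so holds off ferroptosis (gene 399537, chromosome 2, 77321568 to 77323931), measured 59.1, 51.5, 61.7 and 55.7 FPKM before the diet and 69.8, 66.6, 71.0 and 70.8 FPKM after it. The groups did not overlap, but the gap between them was small. Its log2FC of 0.29 (SE 0.08, adjusted p = 0.0288) was close to the median of all tested genes, and it was 0.02 after the median-ratio scaling. The adjusted p went above 0.05, up to 0.0822, when initial pool 2 or any 1 of the steatosis pools was left out. The ratio of GPX1 to GPX4 was 8.28 ± 0.615 in the initial pools and 9.46 ± 0.714 in steatosis (two-sided exact permutation test, p = 0.0571, adjusted p = 0.171 over 4 ratios), and higher in steatosis in 4 of 4 pairs (paired exact p = 0.125).

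CAT encodes catalase, the peroxisomal enzyme that splits hydrogen peroxide without glutathione, and lies on chromosome 2 from 26493664 to 26533881 (gene 397568). It measured 1402, 1363, 1360 and 1510 FPKM before the diet and 1597, 1821, 1605 and 1688 FPKM after it. The groups did not overlap, yet the adjusted p from limma was 0.068 at a log2FC of 0.25 (SE 0.09), equal to the median of all tested genes. Its sign turned after the median-ratio scaling, to -0.02 (adjusted p = 0.923).

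SOD2, the manganese superoxide dismutase of mitochondria, which turns superoxide into hydrogen peroxide, lies on chromosome 1 from 7679352 to 7689564 (gene 100154319). It measured 19.7, 19.6, 17.3 and 28.1 FPKM before the diet and 24.5, 26.3, 26.7 and 24.3 FPKM after it. Initial pool 4 was the highest of all 8 libraries and lay above every steatosis pool, while the other initial pools lay below them. The log2FC was 0.29 (SE 0.14, adjusted p = 0.152), with a 95% confidence interval from -0.03 to 0.60. Without initial pool 4 it was 0.43 with an adjusted p of 0.00856, and after the median-ratio scaling of all pools 0.01.

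**Figure D3:**
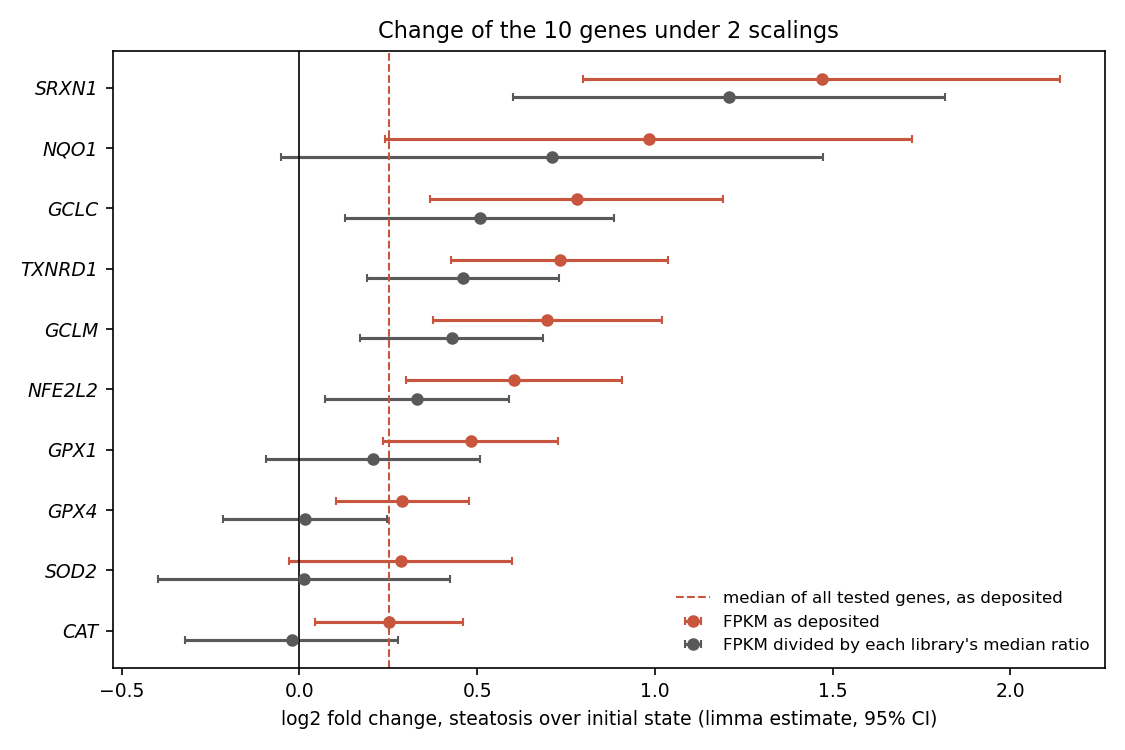
Log2FC of steatosis over the initial state for the 10 genes, estimated by limma with 95% confidence intervals (4 pools per group), from FPKM as deposited (red) and after division by the median ratio of each library (grey), with the median of all tested genes as deposited (0.25) as a dashed line. SRXN1 is highest at 1.47 and 1.21; GPX4, SOD2 and CAT lie near the dashed line as deposited and near 0 after scaling.

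The order of the 10 genes by mean FPKM was the same before and after the diet, from CAT (1409 FPKM in the initial state and 1678 in steatosis) through GPX1 (472 and 659), GPX4 (57.0 and 69.6), GCLC (29.5 and 49.8), SOD2 (21.2 and 25.4), NFE2L2 (16.1 and 24.3), TXNRD1 (11.4 and 19.1), NQO1 (7.49 and 13.9) and GCLM (4.77 and 7.73) to SRXN1 (1.87 and 4.97). FPKM is scaled by transcript length, so these levels can be set side by side, as far as the transcript models of each gene hold. NFE2L2 had a length of 9126 bp and 15 transcripts, 7 of them new, and GPX1 had 803 bp and 1 transcript. The effect of the models on the order was not tested. In the initial state the pools of GCLC and SOD2, SOD2 and NFE2L2, TXNRD1 and NQO1, and NQO1 and GCLM overlapped, so neighbours in that part of the order were not separate. In steatosis overlap was found between SOD2 and NFE2L2, NFE2L2 and TXNRD1, and TXNRD1 and NQO1. The spread between pools was widest for NQO1 in both groups, with an SD of 58.5% of the mean in the initial state and 27.3% in steatosis, and narrowest in the initial state for CAT, at 4.98%, and in steatosis for GPX4, at 2.92%.

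Pools of the same number resembled each other for some of the genes. NFE2L2, GCLC and TXNRD1 were higher in pools 2 and 3 than in pools 1 and 4 within both groups, that is 3 of the 10 genes, and 8.05% of all tested genes had this pattern, which was chosen after its values were seen. For NFE2L2 the nearest profiles among all tested genes with an assigned symbol, by Euclidean distance of the centred log2 values over the 8 libraries, were those of PTK2B, a cytoplasmic tyrosine kinase (distance 0.121, log2FC 0.58), ADPRH, which removes ADP-ribose from proteins (0.199 and 0.59), and DNMT1, the maintenance DNA methyltransferase (0.207 and 0.52). For SRXN1 they were MYOF, a membrane repair protein of the ferlin family (distance 0.404, log2FC 1.55), EME2, a subunit of a DNA repair endonuclease (0.475 and 1.48), and P2RY1, a receptor for ADP (0.524 and 1.33). EME2 and P2RY1 had mean levels under 1 FPKM in both groups.

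Beyond the 10 genes, 94 genes of 6 lists that surround them were tested: regulators of NRF2, other NRF2 targets, glutathione handling, supply of methionine and cysteine, other enzymes of superoxide and peroxide, and selenoproteins with their synthesis. At an adjusted p below 0.05, 24 of the 94 rose and 3 fell, against 26.7% and 2.28% of all tested genes, and 67 did not pass, with a median log2FC of 0.23, near that of all tested genes. With the study's limits 8 rose and 1 fell, against 6.01% and 0.334%. After the median-ratio scaling 11 rose and 6 fell at an adjusted p below 0.05, against 11.6% higher and 9.8% lower of all tested genes. Of these 24 and 11 rises, 13 and 9 lay in 1 list.

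That list was the other NRF2 targets, of which 13 of 21 rose at an adjusted p below 0.05 and 0 fell. The shares of all tested genes were 26.7% and 2.28%, and the median log2FC of the list was 0.59. The other 8 did not pass. Among them were GSR (log2FC 0.004, adjusted p = 0.987 from limma) and SLC7A11 (-0.49, adjusted p = 0.253, under 1 FPKM in every pool). Both were named after their values were seen. With the study's limits 6 rose, against 6.01%. After the median-ratio scaling 9 rose at an adjusted p below 0.05, against 11.6%, and 0 fell, against 9.8%, with a median of 0.33. PIR, an iron-binding nuclear protein that acts as a co-regulator of transcription, went from 4.54 ± 0.470 to 11.4 ± 0.828 FPKM (log2FC 1.32, adjusted p = 6.2e-05). BLVRB, which reduces biliverdin and flavins, went from 38.9 ± 6.50 to 86.8 ± 4.66 FPKM (1.17, adjusted p = 0.000153). PGD, an NADPH-producing enzyme of the pentose phosphate pathway, went from 14.24 to 15.98 FPKM in the initial pools to 29.13 to 34.67 FPKM in steatosis (1.04, adjusted p = 7.5e-05), and TXN from 84.4 ± 10.6 to 171 ± 12.6 FPKM (1.03, adjusted p = 0.000191). For these 4 the groups did not overlap and the adjusted p stayed under 0.05 on the median-ratio scale.

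In glutathione handling 5 of 25 tested genes rose at an adjusted p below 0.05 and 0 fell, against 26.7% and 2.28% of all tested genes, and the median log2FC was 0.13. GGT1, the enzyme on the cell surface that begins the breakdown of extracellular glutathione, measured 1.63, 2.11, 2.23 and 4.01 FPKM before the diet and 4.94, 6.29, 6.10 and 6.92 FPKM after it (log2FC 1.31, adjusted p = 0.0035). GPX3, the secreted glutathione peroxidase of plasma, measured 55.8, 52.7, 83.5 and 74.8 FPKM before the diet and 122, 121, 226 and 142 FPKM after it (1.17, adjusted p = 0.0039). Both were separate between groups. On the median-ratio scale these 2 rose and 1 gene of the list fell, against 11.6% and 9.8% of all tested genes. The fall was in HAGH, a glyoxalase that releases glutathione, with a log2FC of -0.53 (adjusted p = 0.0162) against -0.26 as deposited (0.0716).

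The supply of methionine and cysteine held the only fall of the 6 lists past the study's limits, 1 of its 10 genes, against 0.334% of all tested genes. CTH, cystathionine gamma-lyase, releases cysteine for glutathione at the end of transsulfuration, the route that starts from methionine. It measured 154.6, 59.2, 52.5 and 97.0 FPKM before the diet and 26.02, 29.30, 31.14 and 27.65 FPKM after it. The initial pools were spread widely and the steatosis pools narrowly, with no overlap (log2FC -1.53, SE 0.29, adjusted p = 0.0042). Without initial pool 1, its highest value, the log2FC was -1.23 (adjusted p = 0.00207), and when initial pool 4 or any 1 of the steatosis pools was left out the adjusted p went above 0.01, up to 0.0138. Of the 10 genes of the list 3 rose at an adjusted p below 0.05, against 26.7% of all tested genes, among them MAT1A (0.46, adjusted p = 0.0225) and MAT2A (0.60, adjusted p = 0.0286), the catalytic subunits of liver and non-liver S-adenosylmethionine synthetase. After the median-ratio scaling none of the 3 passed, and 11.6% of all tested genes rose there. CTH was the only gene of the list that fell at an adjusted p below 0.05, as deposited (against 2.28% of all tested genes) and after the scaling (against 9.8%).

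Of the other enzymes of superoxide and peroxide 1 of 15 was higher at an adjusted p below 0.05 and 0 were lower, against 26.7% and 2.28% of all tested genes, with a median log2FC of 0.14. PRDX4, the peroxiredoxin of the endoplasmic reticulum, had a log2FC of 0.41 (adjusted p = 0.0212), and PRDX5, a peroxiredoxin of mitochondria and peroxisomes, one of 0.35 (adjusted p = 0.0792). On the median-ratio scale 0 of the 15 rose and 1 fell, against 11.6% and 9.8% of all tested genes. The fall was in MSRB1, a methionine sulfoxide reductase, with a log2FC of -0.55 (adjusted p = 0.0224) against -0.28 as deposited (0.0864). CUL3, HAGH and MSRB1 were named after their values were seen. Among 12 genes of selenoproteins and their synthesis 1 rose and 2 fell at an adjusted p below 0.05, against 26.7% and 2.28%, with a median of 0.22. SEPSECS, which completes the synthesis of selenocysteine on its tRNA, measured 16.6, 17.5, 18.9 and 13.6 FPKM before the diet and 9.76, 11.22, 10.95 and 11.06 FPKM after it (log2FC -0.62, adjusted p = 0.0040). SELENOK, a selenoprotein of the endoplasmic reticulum, measured 44.4, 39.4, 39.7 and 38.8 FPKM before the diet and 31.90, 29.96, 29.12 and 28.34 FPKM after it (-0.44, adjusted p = 0.0044). Both falls were larger on the median-ratio scale, at -0.89 and -0.71. There 0 genes of the list rose and 2 fell, against 11.6% and 9.8% of all tested genes.

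**Figure D4:**
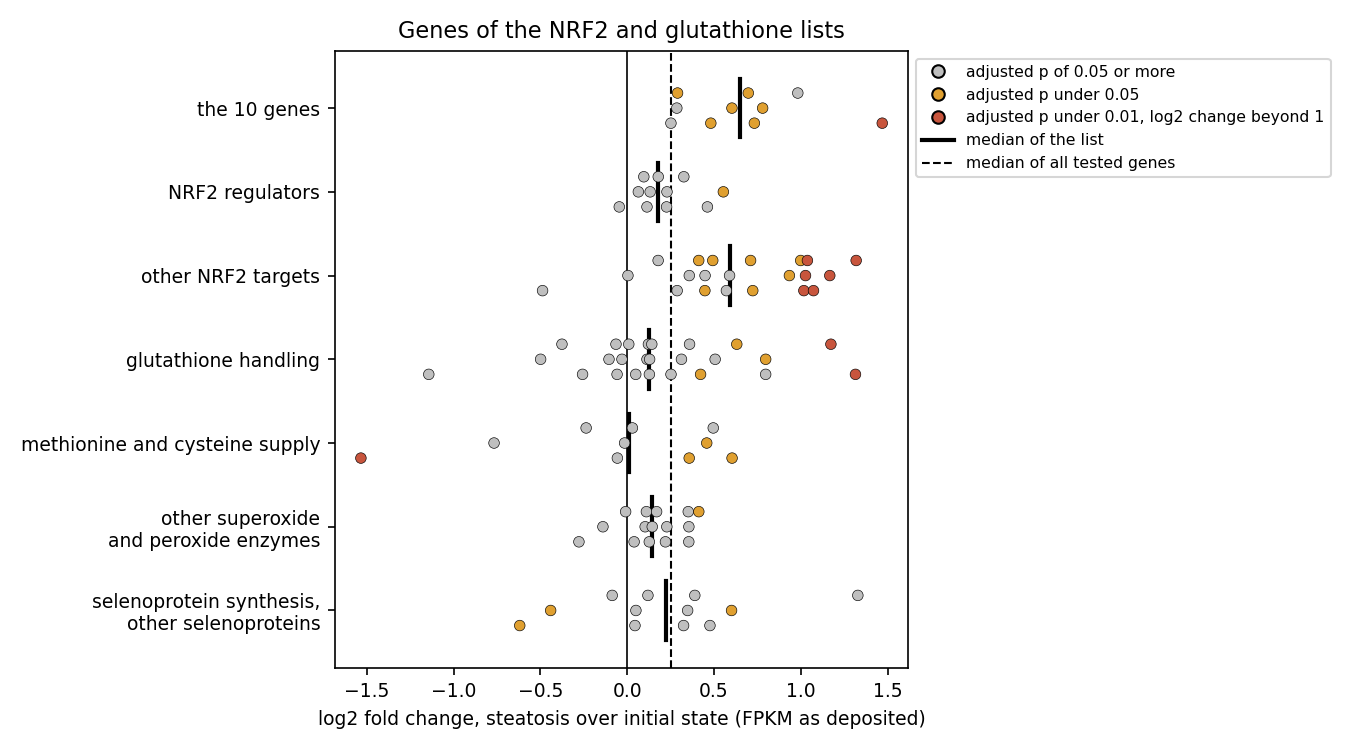
Log2FC (FPKM as deposited, limma, 4 pools per group) of the 10 genes and of the genes of the 6 lists, 1 point per gene, coloured by the test, with the median of each list as a bar and the median of all tested genes (0.25) as a dashed line. The bars of the 10 genes (0.65) and of the other NRF2 targets (0.59) lie to the right of the dashed line, and the other 5 lie to its left, with CTH lowest at -1.53.

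Some markers of the cell types that the tissue holds also differed between the groups. The hepatocyte markers, summed, lay between 62821 and 95352 FPKM before the diet and between 56224 and 67159 FPKM in steatosis. ALB made up most of each sum, at 41268 to 71003 and 33168 to 43509 FPKM, and did not pass (adjusted p = 0.168 from limma). Of the 11 hepatocyte rows 2 rose at an adjusted p below 0.05, both of them rows of TF. Only 1 fell, and the shares of all tested genes were 26.7% higher and 2.28% lower. Of 12 macrophage markers 8 rose and 0 fell, against 26.7% and 2.28% of all tested genes. Their sums went from 932 to 1173 FPKM before the diet and from 1349 to 1561 FPKM in steatosis. CD68 and MARCO, 2 of the 12, rose past the study's limits, against 6.01% of all tested genes. Of 5 cholangiocyte markers 1 rose, SPP1, which alone measured from 4.16 to 9.64 FPKM in the initial pools and from 74.4 to 226.5 FPKM in steatosis and made up most of the sum there (10.1 to 24.6 against 93.0 to 234 FPKM). The other 4, KRT19 and EPCAM among them, did not pass (1 of them did with the block) and overlapped between the groups. Of 6 endothelial markers 2 rose (54.3 to 61.1 against 72.5 to 94.5 FPKM), and of 7 stellate cell markers 3 (53.1 to 167 against 108 to 286 FPKM), with 0 lower. For the cholangiocyte, endothelial and stellate cell counts the shares of all tested genes are again 26.7% higher and 2.28% lower. Past the study's limits rose 1 cholangiocyte marker (SPP1), 1 stellate cell marker (LRAT) and 0 endothelial markers, against the same 6.01%. Of 5 red blood cell markers, 4 of them tested, 0 passed in either direction, with sums from 263.5 to 1303 FPKM before the diet and from 138 to 431 FPKM in steatosis. After the median-ratio scaling 11.6% of all tested genes were higher and 9.8% lower. Beside these shares the marker counts were 6 higher and 1 lower for macrophages (CD14 fell), 0 and 1 for hepatocytes, 1 and 0 each for cholangiocytes, endothelium and stellate cells, and 0 and 1 for red blood cells. The marker that then fell was HBB, a globin, with an adjusted p of 0.039, and of 0.0441 with the block and no scaling. The part of these cell types in the rise of the 10 genes was not tested.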

How the data were processed

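RNA was extracted by the authors from frozen liver and pooled in pairs, and poly-A RNA was read as paired ends of 100 bp on the DNBseq platform. According to the methods and the submitters' processing notes, reads were filtered, mapped with HISAT2 2.0.4 to Sus scrofa 11.1, assembled with StringTie, which added new coding transcripts, and quantified with Bowtie2 2.2.5 and RSEM 1.2.12. The authors deposited FPKM for 17778 known genes and 325 new ones, with no stated scaling between libraries. They also deposited 4 comparisons of single pools by a Poisson method (fold changes, p-values and FDR), whose values were not used. Coordinates came from RefSeq for Sscrofa11.1, in which all 17778 known IDs were found.

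Genes that reached 0.3 FPKM in 4 or more of the 8 libraries were tested on log2(FPKM + 0.1) in R 4.3.3 with limma 3.58.1. The spread followed the mean (trend), no covariate was added to the group, and p-values were adjusted by Benjamini-Hochberg over all tested genes. A fold change on this scale understates that of low genes. The fit was tested on simulated data. Count models were not used because the files hold FPKM, in place of the counts first planned for. The remaining values and the plots came from pandas 2.3.3, scipy 1.17.1, numpy 2.4.6 and matplotlib 3.10.9 under Python 3.11.15. Exact permutation tests were two-sided, and with 4 pools against 4 their smallest p is 0.0286.

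The study gives read numbers by group, with a smaller share of reads kept after filtering in steatosis. These numbers were not analysed here. The FPKM worth of 1 read, seen in low values of genes from 400 to 600 bp long, put every library at 91.5% or more of the deepest one, and errors are SDs over the pools. No pair of libraries shared more than 1.15% of its values. Pool numbers come from the labels. The methods give the same animals for both groups without stating which pigs made each pool, and same-numbered pools deviated together from their group means (correlations of 0.16, 0.35, 0.32 and 0.25 over the tested genes for numbers 1, 2, 3 and 4), so the numbers were taken as pairs and used as a block in an alternative.

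The members and the gene lists were chosen with earlier results of these data known. Named are the 10 members, the genes of each of the 6 lists past the study's limits (at most 4 by adjusted p, and the 2 with the lowest adjusted p where fewer than 2 passed), the 3 nearest profiles of NFE2L2 and of each member past those limits, and at most 3 genes of each marker list. PGC was named in addition, after its values were seen. GSTP1, KRT7 and MB were not listed under these symbols, GPX2 did not pass the filter, and TF has 2 rows. The alternatives were a pseudocount of 1, no filter and a filter at 1 FPKM, 3 other scalings, the block, and each library left out in turn, with the median ratio and the block together chosen after seeing the data. No sequences are given.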

Additional observations from a re-analysis of the deposited data

Results flagged for a closer look

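Among the groups of 4 pools of the members and named genes of the 6 lists (50 groups of 25 genes), 3 held a pool far from the other 3 by Dixon's criterion, which flags about 1 in 20 groups by chance. NQO1 measured 14.05 FPKM in initial pool 1 and from 4.98 to 5.53 FPKM in the other initial pools. SELENOK measured 44.39 FPKM in initial pool 1 and from 38.78 to 39.7 FPKM in the others. BLVRB, the biliverdin and flavin reductase, measured 48.63 FPKM in initial pool 4 and from 35.01 to 36.54 FPKM in the others. The muscle and stomach transcripts of initial pool 1 are given with NQO1 in the results, and their part in the NQO1 and SELENOK values was not tested. Without that pool the log2 fold change of SELENOK was -0.40 (adjusted p = 0.0104 from limma).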

How the results depend on the processing

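After scaling to the upper quartile, to the median ratio and to the median ratio with the pool block, the numbers past the study's limits were 434, 408 and 416 higher (792 as deposited) and 76, 84 and 88 lower (44) over all genes, 0 of the 10 members (1), and 1 gene of the lists each time (8). At an adjusted p below 0.05 they were 1652, 1515 and 1503 higher (3519) and 1073, 1284 and 1097 lower (300) over all genes, 3, 3 and 4 members (7), and 12, 11 and 12 higher (24) and 6, 6 and 5 lower (3) in the lists. The log2 fold change reversed for CAT to -0.022 on the median-ratio scale with and without the block, and for KEAP1 to -0.014 (upper quartile) and -0.046 (median ratio, with and without the block). A pseudocount of 1 left 395 genes higher past the study's limits and 5 in the lists. Without the filter on low values 0 members passed these limits and 766 of all genes were higher, while scaling to a common sum gave 808 genes higher. With a filter at 1 FPKM 8 members were higher at an adjusted p below 0.05, NQO1 among them (0.0474), and 3176 of all genes tested there. The pool block alone gave 785 higher and 57 lower past those limits, 3383 and 343 at an adjusted p below 0.05, and 8 members (NQO1 added, adjusted p = 0.0169), with 9 genes of the lists higher past the study's limits.

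With each library left out in turn, the ranges past the study's limits were 573 to 788 higher and 26 to 51 lower over all genes, 0 to 2 members, and 5 to 9 higher and 0 to 1 lower in the lists, where CTH was lost without initial pool 4 or any steatosis pool. At an adjusted p below 0.05 they were 2200 to 3401 and 168 to 397 over all genes, 6 to 8 members, and 16 to 26 and 3 to 4 in the lists. Members past the study's limits were 2 without initial pool 1, 1 without initial pool 4 and 0 without any other library. Of the values of single genes under these settings 421 kept their direction and their side of an adjusted p of 0.05, 6 gained and 58 lost the call, and 5 reversed. The causes were not tested. The limits are 4 pools per group, read numbers that were not analysed, and a diet that cannot be told apart from age and the way of sampling.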
